A study of Caenorhabditis elegans with 52 samples.

Results

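The 6 Caenorhabditis elegans piRNAs described here, 21ur-7472, 21ur-7828, 21ur-5849, 21ur-7135, 21ur-5766 and 21ur-13756, were chosen by symbol from a table of 14680 piRNAs because each stood well above its isogenic control in disl-2(how27) mutants. The libraries of disl-2(how27) and that control therefore chose them. The other libraries of the series show what the same piRNAs did with other disl-2 alleles, in other mutant backgrounds and after piRNA transcription was shut off.

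Small RNAs of whole day 1 adults were sequenced after treatment with the phosphatase PIR-1, in 42 libraries that form 21 groups of 2. The series asked how DISL-2, an exonuclease of the DIS3L2 family that digests RNA from its 3′ end, affects piRNA levels and lifetimes. At steady state, 11 groups were grown without drug: disl-2(how27), disl-2(tm5337) and their isogenic control; henn-1(tm4477) and disl-2(how18); henn-1(tm4477); parn-1(tm869) and disl-2(tm5337); parn-1(tm869); and pup-1(tm1021), its paired control, disl-2(how27); pup-1(how20) and disl-2(tm5337); pup-1(how50). The other 10 groups are a time course of 0, 2, 4, 6 and 12 h with 4 mM auxin. Both of its strains carry the allele gfp::aid::tofu-5(how48), which puts a degron on TOFU-5, together with sun-1p::mcherry::tirI, which supplies the auxin receptor from the germline promoter of sun-1. One of the strains also carries disl-2(how27). The degron strain without a disl-2 mutation is called the degron strain below. No disl-2 double mutant of pup-1 carried the tm1021 allele of its comparison strain.

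In C. elegans, piRNAs are short germline RNAs, each transcribed as its own small unit and carried by the Piwi protein PRG-1, which uses them to recognise foreign and some endogenous transcripts. Their 3′ ends are trimmed by the exonuclease PARN-1 and methylated by HENN-1, a modification known to protect small RNAs from tailing and decay. PUP-1 is a poly(U) polymerase, and DIS3L2 enzymes are known for degrading RNAs with added uridines. TOFU-5 is needed for piRNA transcription, so its depletion lets the existing piRNAs decay.

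All 6 piRNAs are encoded on chromosome IV, where most piRNA genes of this species lie in a pair of clusters, called cluster a on the left and cluster b on the right below. Gene names and neighbours come from the WBcel235 gene table. The pair 21ur-5766 (WBGene00173608, H32C10.84) and 21ur-7828 (WBGene00171723, H32C10.73) are close neighbours in cluster a, with 7 listed piRNAs between them. The authors class 21ur-5766 as Oogenic and 21ur-7828 as Spermatogenic. The former lies within the span of the coding gene lin-33 and the latter within that of H32C10.1. Further along cluster a, 634 listed piRNAs away, 21ur-7472 (WBGene00174978, Y73B6BL.268) lies within the span of lgc-10 and has no class. Cluster b holds 21ur-13756 (WBGene00166459, Y41E3.258) and 21ur-5849 (WBGene00170084, VY10G11R.50), both without a class, and the Oogenic 21ur-7135 (WBGene00168381, T06A10.67), all outside the span of a coding gene. The table as a whole holds 2701 piRNAs of cluster a and 11176 of cluster b, and it classes 3814 as Spermatogenic and 1745 as Oogenic. Reads of 21ur-13756 were divided between loci in 28 of 42 libraries, so its values are uncertain, and the other 5 piRNAs had whole reads throughout.

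Library depth ranged from 8807176 to 52798564 reads, and 3 reads, the limit that a count of 0 allows, stand for 0.0568 to 0.341 RPM, the sequencing-depth scaled unit of the table. These limits cover counting error only. At steady state, total piRNA level ranged from 23609 ± 2935 RPM (SD, n = 2) in parn-1 to 279745 ± 21178 RPM in henn-1. The 6 piRNAs together made up between 0.0482% and 0.270% of the piRNA level of a library. Spermatogenic piRNAs made up 23.0% and 24.1% of the piRNA level in the disl-2 control libraries, 26.3% and 27.3% in disl-2(how27), and 22.1% and 20.3% in disl-2(tm5337). In the other steady-state groups their share ran from 10.7% in henn-1 replicate 1 to 30.6% in disl-2(how27); pup-1 replicate 2. Whether the make-up of the germline differed between groups was not tested, and in whole animals fewer cells of a type cannot be told apart from less RNA per cell. The mutated genes' own transcripts were not measured in the table used, which leaves the genotypes unchecked.

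The values that chose the piRNAs are given as a description, without a test. The level of 21ur-7472 was 3.95 and 2.18 RPM in the control libraries and 14.6 and 11.9 RPM in disl-2(how27). That of 21ur-7828 was 8.07 and 9.93 RPM against 33.6 and 27.5 RPM, and that of 21ur-5849, the most abundant of the 6, was 21.6 and 11.8 RPM against 51.3 and 41.6 RPM. In each the groups were well apart, although for 21ur-7472 and 21ur-5849 the control libraries also differed from each other. For 21ur-7135 the levels were 4.58 and 5.97 RPM in the control and 15.2 and 16.5 RPM in disl-2(how27). The neighbour of 21ur-7828, 21ur-5766, was at 4.58 and 4.57 RPM in the control and at 19.4 and 10.4 RPM in the mutant, and 21ur-13756 at 3.21 and 1.92 RPM against 13.3 and 9.48 RPM. No control library overlapped a disl-2(how27) library for any of them.

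On the log2(RPM + 0.5) scale, which understates changes of low piRNAs, the differences were 1.99 ± 0.29 (SE) for 21ur-7472, 1.97 ± 0.30 for 21ur-13756 and 1.71 ± 0.26 for 21ur-7828. They were 1.53 ± 0.30 for 21ur-5766, 1.51 ± 0.28 for 21ur-7135 and 1.50 ± 0.25 for 21ur-5849. Among the 5618 piRNAs that reached a mean level of 1 RPM over these libraries, the 6 held ranks 1, 2, 6, 17, 20 and 22 from the top, and a piRNA not among them, 21ur-7067, had rank 8 with a log2 difference of 1.59. The median over all 5618 was 0.47, and 20.6% of them were called higher at an adjusted p under 0.05, as were the 6 by choice. That share depended on single libraries and was 0.0184% without disl-2(how27) replicate 1. With levels rescaled to equal medians between libraries, the 6 differences lay between 0.93 and 1.45.

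**Figure D1:**
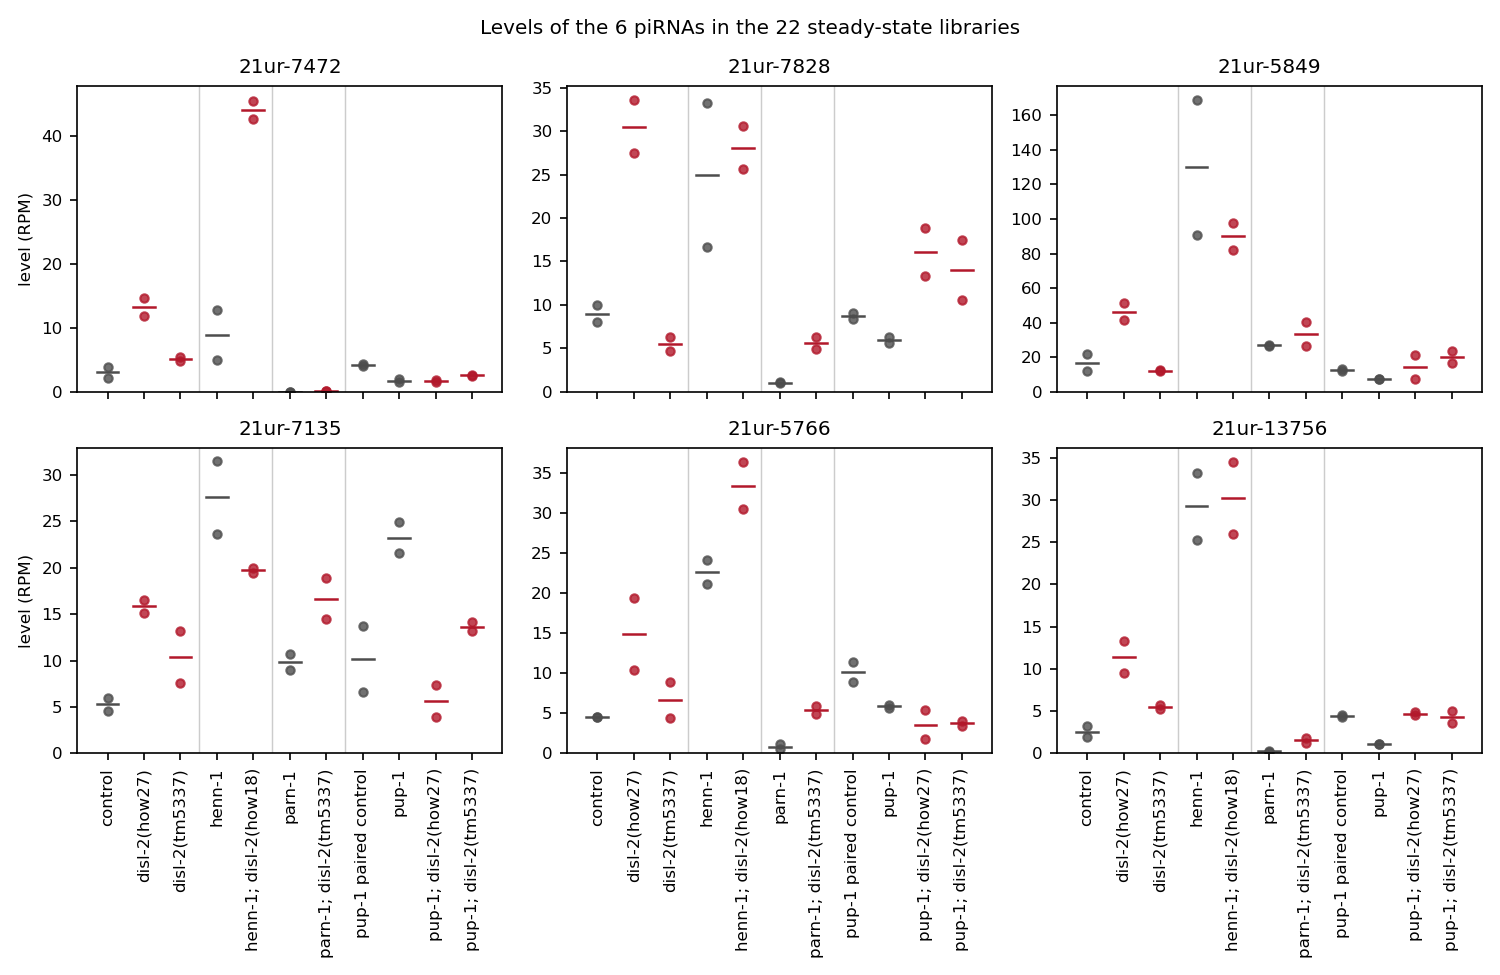
Level in RPM (linear axis from 0, with its own range in each panel) of each of the 6 piRNAs in the 22 steady-state libraries, with a point per library, a bar at the mean of the 2 libraries of a group, and groups with a disl-2 mutation in red. Each piRNA is higher in both disl-2(how27) libraries than in both control libraries, the henn-1 groups hold the highest level of 5 of the 6, and 21ur-7472 is at 0 in both parn-1 libraries.

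The allele disl-2(tm5337) was set against the same control libraries, so its values too are a description. Here 21ur-7472 was at 5.42 and 4.88 RPM, 21ur-13756 at 5.69 and 5.28 RPM, and 21ur-7135 at 13.2 and 7.58 RPM. These 3 lay above both control libraries, by a log2 difference of 0.71, 1.00 and 0.87. The control libraries helped to choose the 6 by their low values, which favours a place above them. The level of 21ur-7828 was 6.27 and 4.73 RPM, below both control libraries (log2 difference -0.67), where disl-2(how27) had the value 1.71. The levels of 21ur-5849, 12.1 and 12.3 RPM, fell within the range of the control, and those of 21ur-5766, 8.93 and 4.45 RPM, lay on both sides of it. All 6 piRNAs were lower in both disl-2(tm5337) libraries than in either disl-2(how27) library. Their choice for high levels in disl-2(how27) favours this, so it does not compare the alleles. Over all 5618 piRNAs the median log2 difference of disl-2(tm5337) from the control was -0.19, with 13.5% called higher and 26.9% called lower by limma.

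The time course gave disl-2(how27) libraries that had no part in the choice. At 0 h, the start of auxin, 21ur-7472 was at 2.02 and 2.57 RPM in the degron strain and at 3.27 and 4.98 RPM in the degron strain with disl-2(how27). Its log2 difference was 0.71, with an adjusted p of 0.333 by limma, a linear model fitted over all piRNAs. The groups did not overlap for 21ur-7472, nor for 21ur-7828, which was at 6.34 and 6.12 RPM in the degron strain and at 6.73 and 9.33 RPM with disl-2(how27). The other way round, 21ur-7135 was at 8.88 and 10.3 RPM without and at 7.05 and 8.50 RPM with disl-2(how27). At this hour 0 of the 6 were called by limma, with log2 differences between -0.29 and 0.71, while 0.0973% of all 4112 piRNAs tested were called higher, 64 piRNAs were called lower and 615 had an unadjusted p under 0.05 in either direction. The 95% intervals do not show that the strains were alike: that of 21ur-7472 reached up to 1.42 in log2, and the median over all piRNAs was -0.20.

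Averaged over the 5 hours, 4 of the 6 piRNAs were higher with disl-2(how27) than without it by limma, against 3.28% of the 4112 piRNAs tested. Of these, 21ur-7472, 21ur-7828 and 21ur-5766 lie in cluster a, where 73 of 515 piRNAs were called higher, against 61 of 3574 in cluster b. The Spermatogenic 21ur-7828 had disl-2(how27) libraries above both degron libraries at 5 of 5 hours. Its level was 4.28 and 4.56 RPM in the degron strain at 4 h and 6.11 and 6.76 RPM with disl-2(how27), and at 12 h it was 1.95 and 2.04 RPM against 3.54 and 4.35 RPM. Its mean log2 difference was 0.61 ± 0.13 (limma adjusted p = 0.00555). The level of 21ur-7472 lay apart at 4 of 5 hours, the exception being 6 h, when disl-2(how27) replicate 2 was at 0.794 RPM, below the degron libraries at 1.02 and 0.842 RPM. Its mean log2 difference was 0.64 ± 0.15 (limma adjusted p = 0.0148).

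For 21ur-5849 the strains were apart at 4 h and 12 h only. It was at 4.36 and 4.66 RPM in the degron strain at 4 h and at 11.2 and 9.97 RPM with disl-2(how27), a ratio of means of 2.34, and the mean log2 difference over hours was 0.61 ± 0.15 (limma adjusted p = 0.0148). The Oogenic 21ur-5766 was apart at 2, 4 and 6 h, at which last hour it was at 3.52 and 2.72 RPM in the degron strain and at 6.71 and 7.39 RPM with disl-2(how27). Its mean log2 difference was 0.60 ± 0.15 (limma adjusted p = 0.0183), a call lost without disl-2(how27) replicate 2 at 4 h. The other Oogenic piRNA, 21ur-7135, was below at 0 h and above at 6 h, where it was at 6.02 and 4.08 RPM without and at 12.6 and 19.1 RPM with disl-2(how27), and it was not called over all hours (log2 0.47 ± 0.16, limma adjusted p = 0.0799). The uncertain 21ur-13756 was apart at 4 h and 12 h and not called (log2 0.24 ± 0.13, limma adjusted p = 0.288). With no filter on low values only 21ur-7828 was still called. The median log2 difference over all piRNAs was 0.03, and the Spermatogenic share of the piRNA level at 12 h was 23.4% and 22.2% in the degron strain and 28.5% and 28.6% with disl-2(how27); its part in the differences was not tested.

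**Figure D2:**
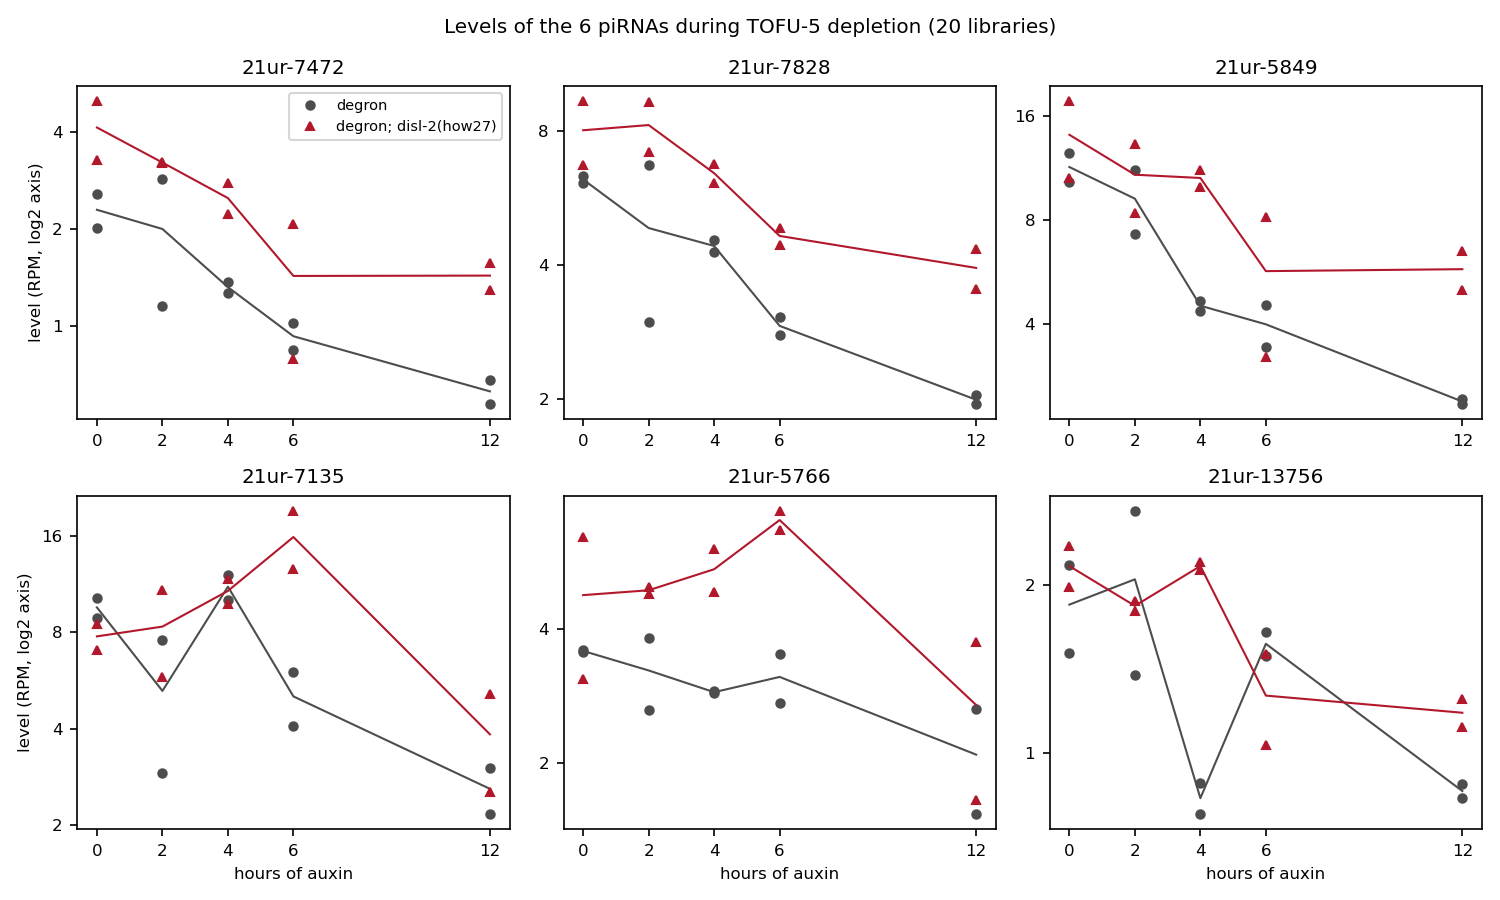
Level in RPM (log2 axis, with its own range in each panel) of each of the 6 piRNAs against hours of auxin, with a point per library and a line through the means of the 2 libraries, for the degron strain with and without disl-2(how27). The line with disl-2(how27) lies above at all 5 hours for 21ur-7472, 21ur-7828, 21ur-5849 and 21ur-5766, and the lines cross for 21ur-7135 and 21ur-13756.

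The slope of log2 level against hours gave each piRNA's loss once TOFU-5 was depleted. In the degron strain 5 of the 6 fell by limma, against 81.9% of the 4112 piRNAs. The steepest of the 6 was 21ur-5849, with a slope of -0.171 per hour (limma adjusted p = 2.1e-05) and a half-life of 5.86 h (95% interval 4.32 to 9.09 h). Its level went from 10.3 and 12.4 RPM at 0 h to 2.34 and 2.42 RPM at 12 h, well apart. The half-life of 21ur-7828 was 8.55 h (6.17 to 13.9 h) and that of 21ur-7472 was 9.05 h (5.98 to 18.6 h). By the same kind of slope, the median over all piRNAs was 9.56 h. In RPM, 32.1% of the 0 h mean of 21ur-7828 and 27.4% of that of 21ur-7472 were left at 12 h. The half-life of 21ur-7135 was 7.77 h (4.63 to 24.0 h), a call lost without degron replicate 2 at 12 h. The slope of 21ur-13756 was -0.0635 per hour (limma adjusted p = 0.0242), lost without any of 4 single libraries. The slope of 21ur-5766 was -0.0537 per hour and was not called (limma adjusted p = 0.0897), and 58.4% of its 0 h mean was left at 12 h.

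With disl-2(how27), 4 of the 6 fell by limma, against 62.7% of all piRNAs, whose median half-life was 13.9 h. The half-life of 21ur-5849 was 9.59 h (6.06 to 22.9 h), and it stood at 10.5 and 17.6 RPM at 0 h and at 6.49 and 5.02 RPM at 12 h. That of 21ur-7828 was 11.4 h (7.52 to 23.5 h) and that of 21ur-7472 was 9.24 h (6.06 to 19.4 h). In RPM, 49.1% of the 0 h mean of 21ur-7828 and 34.8% of that of 21ur-7472 were left at 12 h. The slope of 21ur-13756, at -0.0585 per hour, was called at a limma adjusted p of 0.0465, and that call was lost in 14 of 20 fits that left out 1 library. The Oogenic 21ur-7135 and 21ur-5766 were not called, with slopes of -0.0760 and -0.0592 per hour.

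The difference of the slopes between the strains was called for 0 of the 6 and for 0% of all piRNAs by limma, with 520 of the 4112 at an unadjusted p under 0.05. It was largest for 21ur-5849, at 0.0663 per hour with a 95% interval from -0.0194 to 0.152, and smallest in size for 21ur-7472, at 0.00225 per hour with an interval from -0.0780 to 0.0825. At 12 h 21ur-7472 was at 0.683 and 0.574 RPM in the degron strain. These levels lie near the 0.5 RPM added before the log, which flattens its slope there. The intervals of the 6 include no difference and also differences as large as the slopes of some of these piRNAs. After rescaling to equal medians, which takes out the loss that piRNAs share, 0 of the 6 slopes were called in either strain.

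In the henn-1 mutant, which lacks the piRNA methyltransferase, loss of disl-2 through the allele how18 went with more 21ur-7472. Its level was 12.8 and 4.92 RPM in henn-1 and 45.6 and 42.6 RPM in disl-2(how18); henn-1, its highest values in the series. The groups lay far apart, though the henn-1 libraries differed from each other as well. The log2 difference was 2.39 ± 0.42 (limma adjusted p = 0.0141), which with no filter on low values was not called. It was the only 1 of the 6 called higher, against 17.7% of the 8769 piRNAs tested. In cluster a, where 21ur-7472 lies, 627 of 1377 piRNAs were called higher.

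All 6 piRNAs stood above their levels in the disl-2 control in both henn-1 groups. That control helped to choose them by its low values. Total piRNA level was higher too, at 279745 RPM in henn-1 and 233391 RPM in disl-2(how18); henn-1 against 78740 RPM in that control. Whether the 6 differed in this from other piRNAs was not tested. The level of 21ur-5849 was 90.8 and 169 RPM in henn-1 and 97.8 and 82.0 RPM in the double mutant, with overlap. That of 21ur-5766 was 21.1 and 24.1 RPM against 36.3 and 30.4 RPM, with the double mutant above but not called (log2 0.55, limma adjusted p = 0.147). That of 21ur-7135 was 23.7 and 31.5 RPM against 20.0 and 19.5 RPM, with the double mutant below and not called (log2 -0.46, limma adjusted p = 0.225). The libraries overlapped for 21ur-7828, at 16.6 and 33.2 RPM against 30.6 and 25.6 RPM, and for 21ur-13756, at 25.3 and 33.2 RPM against 34.5 and 25.9 RPM. Neither was called. Rescaling to equal medians turned their log2 differences from 0.25 and 0.05 to -0.000441 and -0.20.

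Without the trimming enzyme PARN-1, the 3 piRNAs of cluster a and 21ur-13756 were scarce, and both cluster a piRNAs that could be tested were higher once disl-2 was mutated as well. The level of 21ur-5766 was 1.13 and 0.595 RPM in parn-1 and 5.86 and 4.94 RPM in disl-2(tm5337); parn-1, a log2 difference of 2.14 ± 0.31 (limma adjusted p = 1.6e-09). Its parn-1 mean, 0.862 RPM, was under the mean of 1 RPM that a fit required. It entered the test only through the double mutant, where it was high, so its p-value is no independent support. Its neighbour 21ur-7828 was at 0.948 and 1.15 RPM against 6.30 and 4.90 RPM, a log2 difference of 1.97 ± 0.31 (limma adjusted p = 3.8e-08). Both groups were well apart for both piRNAs. The third cluster a piRNA, 21ur-7472, had 0 reads in both parn-1 libraries and 3 and 2 reads in the double mutant, so it was at or under the limit of 3 reads throughout and no change is given.

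In cluster b, 21ur-7135 had levels of 10.7 and 9.01 RPM in parn-1, against 18.9 and 14.4 RPM with disl-2 mutated too. It was called higher (log2 0.72 ± 0.29, limma adjusted p = 0.0369), but the call was lost in 3 of 4 fits that left out 1 library, with log2 differences from 0.53 to 0.91, and after rescaling, where it was 0.46. The level of 21ur-5849, 27.2 and 26.6 RPM against 40.2 and 26.5 RPM, overlapped and was not called (log2 0.28, limma adjusted p = 0.350). The level of 21ur-13756, 0.316 and 0.159 RPM against 1.26 and 1.82 RPM, lay under the filter of a mean of 1 RPM and was not tested. In all, 3 of the 4 tested piRNAs were called higher, against 24.5% of the 4039 piRNAs tested, 315 of 511 in cluster a and 670 of 3517 in cluster b. Among the 3 is 21ur-5766, which passed the filter only through the double mutant. The adjusted p-values here rest on a spread pooled over piRNAs, with a prior of 1825 degrees of freedom against 2 residual ones, and with no filter on low values 0 of the 6 were called. The Spermatogenic share of the piRNA level was 13.9% in both parn-1 libraries and 23.3% and 18.5% in the double mutant; its part in the differences was not tested.

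Loss of the poly(U) polymerase in pup-1 took the 6 in both directions. The level of 21ur-13756 was 4.54 and 4.29 RPM in the paired control and 1.14 and 1.16 RPM in pup-1 (log2 -1.58 ± 0.30, limma adjusted p = 7.6e-05). The level of 21ur-7472 was 4.02 and 4.38 RPM against 2.03 and 1.48 RPM (log2 -1.07 ± 0.30, limma adjusted p = 0.00342). Both fell, while 21ur-7135 was higher, at 6.60 and 13.8 RPM in the control and 24.9 and 21.5 RPM in pup-1 (log2 1.23 ± 0.33, limma adjusted p = 0.00236). The call of 21ur-7472 was lost without pup-1 replicate 2, where its log2 difference was -0.89, and after rescaling, where it was -0.36, and that of 21ur-7135 without paired control replicate 1, where it was 0.73. Among all 5120 piRNAs tested 4.77% were called higher and 53.3% lower, with a median of -0.78, beside 1 of the 6 higher and 2 lower.

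The other 3 piRNAs were lower in both pup-1 libraries than in both control libraries without passing the threshold. They were 21ur-7828 (6.33 and 5.57 RPM against 8.43 and 9.05 RPM in the control, log2 -0.52), 21ur-5849 (7.61 and 7.24 RPM against 12.2 and 13.4 RPM, log2 -0.75) and 21ur-5766 (6.08 and 5.63 RPM against 8.84 and 11.4 RPM, log2 -0.73). After rescaling, their log2 differences were 0.26, 0.05 and 0.06.

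When disl-2(how27) was combined with pup-1(how20), 21ur-7135, the piRNA that was higher in pup-1, was lower than in pup-1. Its pup-1 libraries held 24.9 and 21.5 RPM, and those of the double mutant 7.37 and 3.87 RPM (log2 -2.01 ± 0.33, limma adjusted p = 3.1e-05). It was 1 of 6 called lower, against 16.7% of all piRNAs. By contrast 2 of 6 were called higher, against 25.4% of all. They were 21ur-13756, at 1.14 and 1.16 RPM against 4.86 and 4.55 RPM (log2 1.66 ± 0.30, limma adjusted p = 9.2e-05), and 21ur-7828, at 6.33 and 5.57 RPM against 13.3 and 18.9 RPM (log2 1.34 ± 0.30, limma adjusted p = 0.000928). The libraries were apart in each of these 3. The same pup-1 libraries enter the differences from the paired control with opposite sign. A fall here is therefore not independent of a rise there, nor a rise here of a fall there.

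Not called were 21ur-7472 (1.52 and 1.89 RPM in the double mutant, log2 -0.03), 21ur-5849 (7.46 and 21.2 RPM, log2 0.73, limma adjusted p = 0.0899) and 21ur-5766 (5.36 and 1.80 RPM, log2 -0.79, limma adjusted p = 0.0647). The 2 libraries of the double mutant differed widely for the last of these and for 21ur-5849. The Oogenic share of the piRNA level was 28.1% and 27.7% in pup-1 and 20.9% and 20.0% in the double mutant, and the Spermatogenic share was 19.8% and 19.7% against 30.2% and 30.6%. These shares move the way that the Oogenic 21ur-7135 and the Spermatogenic 21ur-7828 did, and their part in those calls was not tested. Nor can the disl-2 allele be told apart here from the change of pup-1 allele.

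The second double mutant, disl-2(tm5337); pup-1(how50), was set against the same pup-1 libraries. Its differences too are not independent of those between pup-1 and the paired control. The level of 21ur-13756 was 5.07 and 3.60 RPM in this double mutant (log2 1.54 ± 0.30, limma adjusted p = 0.000388). That of 21ur-5849 was 23.8 and 16.4 RPM (log2 1.36 ± 0.34, limma adjusted p = 0.00395), and that of 21ur-7828 was 17.5 and 10.6 RPM (log2 1.13 ± 0.30, limma adjusted p = 0.00563). These 3 of 6 were called higher, against 23.8% of all piRNAs. The calls of 21ur-5849 and 21ur-7828 were lost without replicate 1 of this double mutant, with log2 differences of 1.09 and 0.78, and that of 21ur-7828 also without pup-1 replicate 2. With no filter, 1 of the 3 was still called.

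The level of 21ur-7472 was 2.48 and 2.63 RPM, above both pup-1 libraries but not called (log2 0.45, limma adjusted p = 0.251). The Oogenic pair was not called either, with 21ur-7135 at 14.1 and 13.2 RPM (log2 -0.75, limma adjusted p = 0.0797) and 21ur-5766 at 4.06 and 3.42 RPM (log2 -0.59, limma adjusted p = 0.188), each below both pup-1 libraries. After rescaling, 21ur-7135 was called lower (log2 -0.89, limma adjusted p = 0.0488), as it was in both fits that left out a library of disl-2(how27); pup-1.

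**Figure D3:**
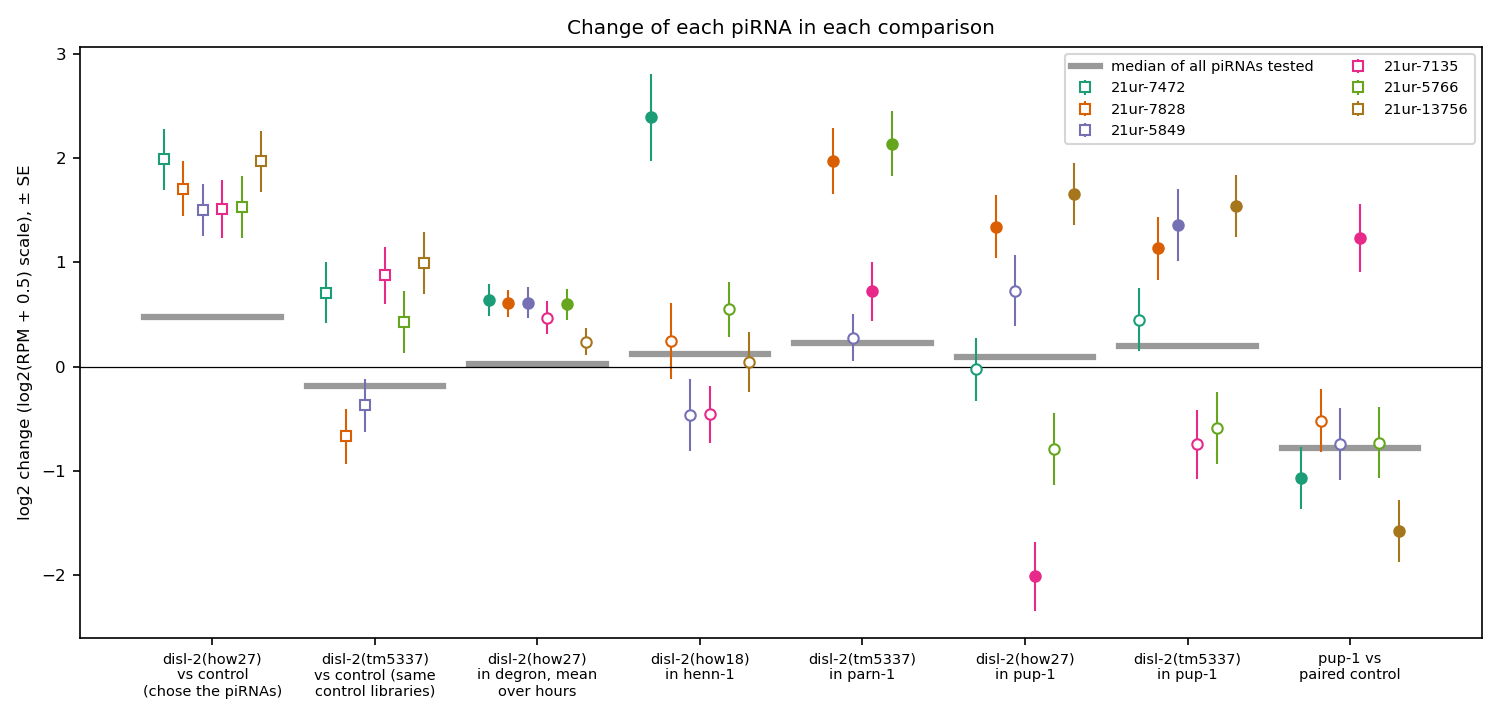
Difference on the log2(RPM + 0.5) scale, ± SE, of the 6 piRNAs in 8 comparisons. Filled circles were called at a limma adjusted p under 0.05, open circles were not, and squares were not tested. The grey bar is the median over all piRNAs tested. No point is drawn for 21ur-7472 and 21ur-13756 in the parn-1 background, where they had no value. In the parn-1 background 21ur-5766 and 21ur-7828 stand near 2, while in the pup-1 backgrounds 21ur-7135 stands at -2.01 with disl-2(how27) and at 1.23 in pup-1 alone.

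Whether the difference between strains with and without a disl-2 mutation varied by background was tested as a difference of differences. The disl-2(tm5337) double mutant of pup-1 carries pup-1(how50), and that of disl-2(how27) pup-1(how20), while the single mutant carries pup-1(tm1021). In both tests the disl-2 mutation therefore cannot be told apart from the change of pup-1 allele. For tm5337 the difference in parn-1 exceeded that in pup-1 for 2 of the 5 piRNAs with a value, against 7.35% of the 5103 piRNAs tested. These were 21ur-5766 (2.73 ± 0.48 on the log2 scale, limma adjusted p = 0.000597) and 21ur-7135 (1.47 ± 0.45, limma adjusted p = 0.0272). The latter call was lost in 7 of 12 fits that left out 1 library. Both are Oogenic, a class of which 69 of 1017 piRNAs were called higher and 105 lower. The Spermatogenic 21ur-7828 was not called (0.84, limma adjusted p = 0.169), nor were 21ur-5849 (-1.08, limma adjusted p = 0.111) and 21ur-13756 (-0.07, limma adjusted p = 0.919). The last was under the filter in the parn-1 fit. Its parn-1 levels, 0.316 and 0.159 RPM, lie below the 0.5 RPM added before the log, and its value changed sign with a pseudocount of 0.1.

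For how27 the difference in the degron strain at 0 h was set against that in pup-1. It was higher in the degron strain for 21ur-7135 (1.73 ± 0.47, limma adjusted p = 0.0102), 1 of 6 against 6.12% of all piRNAs. It was lower for 21ur-13756 (-1.46 ± 0.41, limma adjusted p = 0.0121), 1 of 6 against 20.5%. The first call was lost without disl-2(how27); pup-1 replicate 2, at 1.30, and the second without degron replicate 2 at 0 h, at -1.26. The strains and the experiment differ here as well and cannot be told apart from the pup-1 mutations.

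Across the 11 steady-state groups the 6 piRNAs did not share 1 order of levels. The libraries of disl-2(how27) and of the disl-2 control chose the 6, so the places of both groups in these orders follow in part from that choice. The highest mean of 21ur-7472 was 44.1 ± 2.09 RPM in disl-2(how18); henn-1, followed by disl-2(how27) at 13.3 ± 1.91 RPM and henn-1 at 8.86 ± 5.56 RPM, which overlapped each other. For 21ur-7828 the highest 3 means, 30.5 ± 4.30 RPM in disl-2(how27), 28.1 ± 3.49 RPM in disl-2(how18); henn-1 and 24.9 ± 11.7 RPM in henn-1, overlapped. In 21ur-5849 henn-1, at 130 ± 55.3 RPM, overlapped disl-2(how18); henn-1 at 89.9 ± 11.1 RPM, and both lay above disl-2(how27) at 46.4 ± 6.83 RPM. The highest levels of 21ur-13756 were those of the same pair of groups, at 30.2 ± 6.03 RPM in the double mutant and 29.2 ± 5.58 RPM in henn-1, again with overlap.

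The Oogenic piRNAs differed from each other. In 21ur-7135, henn-1 at 27.6 ± 5.56 RPM overlapped pup-1 at 23.2 ± 2.41 RPM, and its lowest mean, 5.27 ± 0.982 RPM, was that of the disl-2 control, overlapping 5.62 ± 2.47 RPM in disl-2(how27); pup-1. In 21ur-5766 disl-2(how18); henn-1 stood alone at 33.4 ± 4.18 RPM, and parn-1 was lowest at 0.862 ± 0.377 RPM. The lowest group was also parn-1 for 21ur-7472, 21ur-7828 (1.05 ± 0.143 RPM) and 21ur-13756 (0.237 ± 0.111 RPM). It was pup-1 for 21ur-5849 (7.42 ± 0.259 RPM), with disl-2(how27); pup-1 overlapping it. In parn-1, 21ur-7135 and 21ur-5849 were instead above both libraries of the disl-2 control, which helped to choose them by its low values. Against the pup-1 paired control, 21ur-5849 was also above, at 27.2 and 26.6 RPM against 12.2 and 13.4 RPM. The parn-1 levels of 21ur-7135, 10.7 and 9.01 RPM, lay within that control's range of 6.60 to 13.8 RPM.

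The group means, centred in each group, were correlated between piRNAs over the 11 groups as a description. Within the set, Pearson's r ran from -0.546 between 21ur-7135 and 21ur-7472 to 0.529 between 21ur-13756 and 21ur-7472. The neighbours 21ur-5766 and 21ur-7828 had r = 0.212. Among 3164 piRNAs considered, the pattern most like that of 21ur-7472 was that of 21ur-6605 (r = 0.862), and the one most like that of 21ur-7828 was that of 21ur-5281 (r = 0.927), also Spermatogenic. For 21ur-5849 it was 21ur-6258 (r = 0.970), for 21ur-7135 it was 21ur-51 (r = 0.903), and for 21ur-5766 it was 21ur-3848 (r = 0.721), which like it lies in cluster a. For 21ur-13756 it was 21ur-11298 (r = 0.994), whose reads were divided between loci in 29 libraries. The piRNAs compared share libraries and depth, and the likenesses to piRNAs outside the set were the best of many. Among the 11 groups are disl-2(how27) and the disl-2 control, whose libraries chose the set by high and low levels. The r values, within the set and outside it, therefore follow in part from that choice. Their size without these groups was not tested.

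The piRNAs listed next to the 6 on chromosome IV were not chosen by level and are described only. Of 57 such neighbours, 5 on each side, 27 could be tested in disl-2(how27) against the control, where 10 were higher by limma and 0 lower, with 20.6% of all piRNAs called higher and a median log2 difference of 0.62 beside 0.47 over all piRNAs. With disl-2(tm5337), set against the same control, 9 of the 27 were higher and 3 lower, beside 13.5% and 26.9% of all piRNAs. Over all hours of the time course 4 of 19 were higher, beside 3.28% of all piRNAs, with a median of 0.19 beside 0.03. In henn-1, 4 of 36 were higher with disl-2(how18), beside 17.7% of all piRNAs, and 1 was lower. In pup-1 against its paired control, 3 of 24 were higher and 15 lower, beside 4.77% and 53.3% of all piRNAs. In the pup-1 background 4 of 24 were higher and 3 lower with disl-2(how27), beside 25.4% and 16.7%, and 4 were higher and 1 lower with disl-2(tm5337), where 23.8% of all piRNAs were higher. In the parn-1 background 6 of 12 were higher, beside 24.5% of all piRNAs. There the tested neighbours of 21ur-5766 were all higher (3 of 3), as were those of 21ur-7828 (2 of 2) and 21ur-7472 (2 of 2), while 0 of 5 were for 21ur-5849 and 0 of 1 for 21ur-7135. Neighbours of 21ur-5766 and 21ur-7828 overlap, and these counts are small. In the cluster a list as a whole, 315 of 511 piRNAs were higher in that background, and in cluster b 670 of 3517. With disl-2(how27) against the control, 384 of 881 were higher in cluster a and 768 of 4708 in cluster b. Over all hours of the time course the counts were 73 of 515 and 61 of 3574.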

How the data were processed

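Small RNAs of whole C. elegans adults were measured in 42 libraries. The authors deposited piRNA levels as RPM per piRNA. Trim Galore and Bowtie are named, per the submitters' processing notes. The genome build and the read total behind the RPM scaling are not given in the sources used here. No coordinates are therefore printed. A further 10 of 52 samples were not analysed here.

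One piRNA listed on 2 lines was joined, which left 14680, all matched in the WBcel235 gene table. The value of 1 read in each library gave its depth. Between 85.8% and 88.2% of values came to a whole read within 0.01 read, the rest holding divided reads, so no count test was run. Levels were taken to log2(RPM + 0.5) and fitted with a variance trend by limma 3.58.1 (R 4.3.3), 1 comparison at a time, keeping piRNAs whose mean level over the fitted libraries was 1 RPM or more. Benjamini-Hochberg adjustment ran over all piRNAs tested, with a threshold of 0.05. The disl-2 alleles and control shared 1 fit, as did the 4 pup-1 groups and the 20 time-course libraries. Levels were not rescaled between libraries. Fits were tested on simulated data. Nothing in the labels ties replicates to separate cultures, and the spread that p-values measure may then be technical.

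The 6 piRNAs, the lists and the comparisons were chosen with earlier results of these data known. The text names the 6 and, for each, the piRNAs most alike in pattern. The directions whose background shares are printed, the leaving out of changes at or under 3 reads, and the class shares per library were chosen after seeing the data. Other settings were no filter or a stricter one of 5 RPM, pseudocounts of 0.1 and 2, medians made equal between libraries, all 42 libraries in 1 fit, a block for the replicate number, and each library left out.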

Additional observations from a re-analysis of the deposited data

Results flagged for a closer look

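In 4 cases the difference in 1 piRNA between strains with and without a disl-2 mutation was unlike in 2 backgrounds by a test of that contrast itself, all on the log2(RPM + 0.5) scale with limma adjusted p-values. The pup-1 double mutants carry pup-1(how50) or pup-1(how20) and the single mutant pup-1(tm1021), so the disl-2 mutation cannot be told apart from the change of pup-1 allele in any of them. For disl-2(tm5337), the difference in parn-1 exceeded that in pup-1 by 2.73 for 21ur-5766 (adjusted p = 0.000597). Its range over fits that left out 1 library was 2.44 to 3.01. For 21ur-7135 the same difference was 1.47 (adjusted p = 0.0272), and it was lost in 7 of 12 such fits. For disl-2(how27), the difference in the degron strain at 0 h exceeded that in pup-1 by 1.73 for 21ur-7135 (adjusted p = 0.0102) and fell short of it for 21ur-13756, with a difference of -1.46 (adjusted p = 0.0121), whose reads were divided between loci. The level of 21ur-7135 in pup-1, 24.9 and 21.5 RPM, enters both of its differences, so they are not independent.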

How the results depend on the processing

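Values are log2 differences or slopes per hour as in the report, counts are of the 6 piRNAs called by limma in the direction reported, and all alternatives were planned. With a pseudocount of 0.1 or 2, or 1 fit over all libraries, every count of piRNAs called stayed within 1.5 times the reported one. With no filter on low values the count was 1 of 4 over all hours, 0 of 1 in henn-1, 0 of 3 in parn-1, 0 of 1 higher in pup-1, 1 of 2 higher and 0 of 1 lower with disl-2(how27) in pup-1, 1 of 3 with disl-2(tm5337) in pup-1, 0 of 2 for the parn-1 minus pup-1 difference and 0 of 1 higher for the degron minus pup-1 difference. The cause was not tested. With a mean of at least 5 RPM fewer of the 6 entered the fits, and 2 were called over all hours, 3 and 2 for the slopes without and with disl-2(how27), 1 in parn-1, 1 lower in pup-1, 1 higher with disl-2(how27) in pup-1, 1 for parn-1 minus pup-1 and 0 lower for degron minus pup-1.

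Rescaling to equal medians, which removes any shift shared by piRNAs, left 0 slopes called in either strain. It turned the degron slopes of 21ur-5766 and 21ur-13756 to 0.0491 and 0.0249, and the slopes with disl-2(how27) of 21ur-7135, 21ur-5766 and 21ur-13756 to 0.00251, 0.0159 and 0.00677. The slope difference turned to -0.0119 for 21ur-7472 and -0.0181 for 21ur-13756, and with a pseudocount of 2 to -0.0106 for 21ur-7472. In henn-1, 21ur-7828 and 21ur-13756 turned to -0.000441 and -0.20. In pup-1, 21ur-7828, 21ur-5849 and 21ur-5766 turned to 0.26, 0.0522 and 0.0586, with 1 piRNA called lower. The parn-1 minus pup-1 difference of 21ur-13756 turned to 0.16, and with a pseudocount of 0.1 to 0.49. For degron minus pup-1, 3 were called higher.

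Leaving out 1 library moved values over these ranges, each of which crosses 0. For disl-2(tm5337) against its control they were -0.80 to 0.0521 for 21ur-5849 and -0.0353 to 0.89 for 21ur-5766. At 0 h of the time course they were -0.10 to 0.62 for 21ur-5849, -0.18 to 0.77 for 21ur-5766 and -0.01 to 0.40 for 21ur-13756. The slope of 21ur-5766 with disl-2(how27) ran from -0.0891 to 0.000437, and slope differences ran from -0.0218 to 0.0186 for 21ur-7472, -0.0354 to 0.0541 for 21ur-5766 and -0.00714 to 0.0115 for 21ur-13756. In henn-1 the ranges were -0.24 to 0.73 for 21ur-7828 and -0.16 to 0.25 for 21ur-13756, in parn-1 -0.0187 to 0.57 for 21ur-5849, and in disl-2(how27) with pup-1 -0.20 to 0.15 for 21ur-7472. The parn-1 minus pup-1 difference of 21ur-13756 ran from -0.30 to 0.15, and the degron minus pup-1 difference of 21ur-5849 from -1.19 to 0.25. Counts called ran from 3 (without degron replicate 2 at 12 h) to 6 for the degron slopes, from 1 to 3 higher in henn-1 (3 without henn-1 replicate 2), from 0 to 1 higher (0 without paired control replicate 1) and 1 to 4 lower in pup-1 (1 without pup-1 replicate 2, 4 without disl-2(how27); pup-1 replicate 1), from 1 to 2 lower with disl-2(how27) in pup-1 (2 without replicate 1 of that double mutant), from 1 to 3 higher with disl-2(tm5337) in pup-1 (1 without replicate 1 of that double mutant), from 1 to 2 higher for parn-1 minus pup-1, and from 0 to 2 higher and 0 to 2 lower for degron minus pup-1. In the other direction, 21ur-5849 (-0.91) and 21ur-7135 (-0.66) were called lower in henn-1 without henn-1 replicate 1. Without either library of disl-2(how27); pup-1, 21ur-7135 was called lower with disl-2(tm5337) in pup-1 (-0.75) and 21ur-5849 for parn-1 minus pup-1 (-1.08).

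The share of all piRNAs called moved as well. Over the settings and left-out libraries it ran from 0% (no filter) to 34.3% (without disl-2(tm5337) replicate 1) for disl-2(how27), from 0.448% to 5.27% over all hours, from 0% to 38.9% in henn-1 (without henn-1 replicate 1), and from 0.734% to 25.5% in parn-1. In pup-1 it ran from 1.69% to 19.0% higher and from 21.2% to 57.9% lower. It ran from 3.88% to 35.8% higher and from 2.91% to 20.9% lower with disl-2(how27) in pup-1, and from 1.32% to 39.0% with disl-2(tm5337) in pup-1. For the slopes it ran from 13.4% to 86.5% without and from 1.48% to 73.0% with disl-2(how27). It ran from 0% to 0.130% at 0 h, from 2.15% to 11.7% for parn-1 minus pup-1, and from 1.15% to 14.5% higher and 4.07% to 36.5% lower for degron minus pup-1.

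Same-numbered replicates deviated together in some pairs of groups and not in others. Their correlations ran from -0.169 to 0.192 between the disl-2 groups and from -0.441 to 0.448 in the time course, with 11 of 45 pairs over 0.1. Such a mixed range does not settle whether same-numbered samples belong together, and the reported fits do not pair them. With replicate number as a block, 4 were called over all hours, 3 rather than 4 for the slopes with disl-2(how27), 2 rather than 3 in parn-1, and 27.8% of all piRNAs in disl-2(how27). With 2 libraries a group and the prior spread pooled over piRNAs, single p-values are imprecise, and levels near 3 reads cannot show a change.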
